A study of Homo sapiens with 6 samples.

Results

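The Fos, Jun and EGR families are described here in SK-Hep1 cells with and without knockdown of the lncRNA *RAB30-DT*: *FOS*, *FOSB*, *FOSL1*, *FOSL2*, *JUN*, *JUNB*, *JUND*, *EGR1*, *EGR2* and *EGR3*. These 10 genes, of 62700 in the files, were taken by symbol, and they were chosen by their levels in these same libraries, above all by how far the third control library stood above the other controls for *FOS*, *FOSB* and *EGR1*. Their levels and fold changes are therefore given as descriptions, without a test. Poly-A selected RNA was sequenced from 6 samples of SK-Hep1, an established human cell line that the study groups with its liver cancer lines and calls endothelial-derived. The 3 control libraries are titled as carrying a control shRNA (shControl) while their genotype field reads WT, and the 3 knockdown libraries are titled shRAB30-DT. According to the study's methods, shRNAs were delivered with pLKO.1 lentivirus and stable lines were obtained by puromycin selection, so both groups may share vector and selection. Which of the study's shRNAs was sequenced, the time since selection, and whether the 3 libraries of a group came from separate cultures are not given in the labels. The spread within a group may accordingly be technical.

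Fos and Jun proteins are leucine zipper transcription factors that pair to form AP-1. Jun proteins can pair with each other, whereas Fos proteins need a Jun partner. EGR proteins are zinc finger factors that bind GC-rich sites. Many of these genes are immediate early genes: growth factors, serum or stress switch them on within minutes through MAP kinases, without new protein synthesis, and their unstable mRNAs are soon lost again. At the *FOS* and *EGR* promoters, serum response factor (SRF) binds the CArG box together with ELK family cofactors. *FOSL1* and *JUND* behave less as brief pulses, *FOSL1* being maintained by sustained ERK signalling and *JUND* being expressed broadly.

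The targeted transcript, *RAB30-DT*, had control levels of 18.16, 11.51 and 13.91 TPM and knockdown levels of 11.94, 10.85 and 6.5 TPM, here and throughout in the order of replicates 1, 2 and 3. TPM, transcript abundances per fixed library total, are scaled for gene length. Knockdown replicate 1 was above control replicate 2, and the log2 fold change of −0.55 (SE 0.27, adjusted p = 0.355, limma) did not pass the threshold. The study separately reports the knockdown by qPCR in these cells. TPM keep no read number, so the depth is unknown. Between 20127 and 21675 genes were above 0 TPM per library. Control replicate 3 lay apart from the rest on the first principal component (39.1% of the variance), at 61.5 where the other libraries ran from −39.2 to 21.4. The libraries also differed in how levels followed exon GC content, with Spearman coefficients across genes from −0.606 to 0.489, the highest in control replicate 3. Of 9 hepatocyte markers 8 stayed below 1 TPM in every library, as did all 6 endothelial markers (*PECAM1*, *CDH5*, *VWF*, *KDR*, *TEK* and *ERG*) and all 3 leukocyte markers. The exception, *SERPINA1*, ran from 18.1 to 37.2 TPM. The 6 mesenchymal markers were uneven. The filament gene *VIM* had 3793 to 4784 TPM and the fibronectin gene *FN1* 12.8 to 22.8 TPM, whereas *CDH2*, *COL1A1*, *S100A4* and *COL1A2* reached at most 5.54, 2.41, 2.34 and 0.12 TPM.

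The CArG boxes are shown first, because they are the best known sequences through which serum acts on these genes. In the 500 bases before the GENCODE 5′ end of each gene (hg38), a CArG box, which holds 6 A or T letters between CC and GG, was found on either strand for 4 of the 10 genes: *FOS*, *FOSB*, *EGR1* and *EGR3*. Of all 20046 protein-coding genes, 495 (2.47%) held one. In the lines that follow, written 5′ to 3′ on the strand of the gene, capitals mark the CArG boxes. The *FOS* box ends 303 bases before the gene (chr14:75278499-75278538, plus strand), and the *FOSB* box ends 264 bases before it (chr19:45467707-45467746, plus strand), within an intron of *ERCC1*, which runs the other way. *EGR1* held 5 boxes, 3 in a distal group (chr5:138465046-138465139, plus strand) and 2 in a proximal group whose last box ends 74 bases before the gene (chr5:138465359-138465420, plus strand). The *FOS* and *EGR1* windows overlap no annotated gene.
FOS: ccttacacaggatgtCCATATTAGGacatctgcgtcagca
FOSB: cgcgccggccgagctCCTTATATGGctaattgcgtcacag
EGR1 distal: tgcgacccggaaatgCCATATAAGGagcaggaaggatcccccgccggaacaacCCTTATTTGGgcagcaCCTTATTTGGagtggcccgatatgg
EGR1 proximal: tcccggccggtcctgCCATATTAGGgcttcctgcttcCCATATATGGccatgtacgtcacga

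No CArG box was found in the windows of *JUN*, *JUNB*, *JUND*, *FOSL1*, *FOSL2* and *EGR2*. The cAMP response element TGACGTCA, bound by CREB and by ATF–Jun pairs, was found before *FOSB* and *JUND* (2 of 10 genes, against 2.22% of all protein-coding genes). The pair is printed with the element in capitals, because the levels of these genes differed in opposite directions between the groups. The *JUND* element ends 193 bases before the gene (chr19:18281800-18281837, minus strand) and overlaps no annotated gene. The *FOSB* element ends 317 bases before the gene (chr19:45467656-45467693, plus strand), again in the *ERCC1* intron.
JUND: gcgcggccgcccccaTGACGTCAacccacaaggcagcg
FOSB: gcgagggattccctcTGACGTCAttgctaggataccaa

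The AP-1 site itself, searched as TGACTCA or TGAGTCA, was found before 1 of the 10 genes, *EGR2* (6.50% of all protein-coding genes), and the EGR site GCGNGGGCG before 3, *EGR1*, *FOSB* and *JUND* (11.6%). These are matches of letters in a fixed window, and binding was not measured.

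*FOS* (ENSG00000170345.10, chr14:75278826-75282230, plus strand), the founding member of its family, was lower in knockdown cells than in every control library. Its levels were 22.24, 29.84 and 411.45 TPM in control and 9.08, 11.40 and 9.83 TPM in knockdown cells. The groups did not overlap, but control replicate 3 alone was 15.8 times the mean of the other 2 controls, and that mean was in turn 2.58 times the knockdown mean of 10.1 ± 1.18 TPM (SD, n = 3). In such bulk RNA, fewer cells with the transcript and less transcript per cell cannot be told apart. *FOSB* (ENSG00000125740.15, chr19:45467995-45475179, plus strand), a close relative of *FOS* that likewise pairs with Jun proteins, followed the same order with a wider range. Its levels were 6.93, 10.58 and 428.00 TPM in control and 0.61, 1.59 and 1.11 TPM in knockdown cells. Control replicate 3 was 48.9 times the mean of the other controls, and that mean was 7.94 times the knockdown mean of 1.10 ± 0.490 TPM (SD, n = 3). *ERCC1*, a DNA repair gene with a mean of 87.6 TPM, overlaps *FOSB* on the opposite strand. The strand setting of the counting is not given in the sources used here, so the *FOSB* level, in the knockdown libraries above all, is uncertain.

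*FOSL1* and *FOSL2*, which encode the Fra proteins that lack the strong activation domain of FOS, differed little between the groups. *FOSL1* (ENSG00000175592.9, chr11:65892049-65900573, minus strand) was the most abundant of the 10 transcripts in 5 of the 6 libraries, with 359.95, 472.80 and 312.43 TPM in control and 398.90, 451.41 and 472.91 TPM in knockdown cells. Its groups overlapped, and control replicate 3 was the lowest library. *FOSL2* (ENSG00000075426.12, chr2:28392448-28417317, plus strand) had 43.29, 59.60 and 57.25 TPM in control and 41.20, 46.82 and 40.80 TPM in knockdown cells, also with overlap. For *FOSL2* control replicate 3 lay within the range of the other controls.

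*JUN*, the main partner of Fos proteins, had 162.43, 226.24 and 422.87 TPM in control and 166.19, 196.55 and 200.96 TPM in knockdown cells (ENSG00000177606.9, chr1:58776845-58784048, minus strand). The knockdown libraries lay at the level of control replicates 1 and 2, and control replicate 3 was 2.18 times the mean of these 2 controls. *JUNB* (ENSG00000171223.6, chr19:12791486-12793315, plus strand), a Jun protein with weaker activation of many targets, had 12.75, 23.37 and 102.86 TPM in control and 10.45, 14.31 and 17.47 TPM in knockdown cells. Control replicate 3 was 5.70 times the mean of the other controls, and the knockdown libraries overlapped those controls. *HOOK2*, on the opposite strand with a mean of 8.06 TPM, overlaps *JUNB*, so low *JUNB* levels carry the same uncertainty as those of *FOSB*. *JUND* (ENSG00000130522.6, chr19:18279694-18281622, minus strand) was the only one of the 8 genes tested for which all knockdown libraries lay above all control libraries. It had 63.36, 72.07 and 101.09 TPM in control and 132.92, 137.47 and 127.58 TPM in knockdown cells. The knockdown mean of 133 ± 4.95 TPM (SD, n = 3) was 1.96 times the mean of control replicates 1 and 2, and the third control was the nearest of the controls to the knockdown level.

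*EGR1*, the zinc finger gene induced beside *FOS*, had 15.36, 15.53 and 207.93 TPM in control and 15.09, 17.17 and 14.47 TPM in knockdown cells (ENSG00000120738.8, chr5:138465479-138469303, plus strand). Control replicate 3 was 13.5 times the mean of the other 2 controls, which differed from the knockdown mean of 15.6 ± 1.41 TPM (SD, n = 3) by a factor of 1.01. *EGR2* (ENSG00000122877.18) was listed at 0, 0 and 0.30 TPM in control and at 0, 0 and 0.31 TPM in knockdown cells. *EGR3* (ENSG00000179388.9) was listed at 0, 0 and 0.44 TPM in control and at 0.02, 0.05 and 0 TPM in knockdown cells. Both were below the mean of 1 TPM required for testing, which left 8 of the 10 genes. *EGR3* holds a CArG box and was highest in control replicate 3, but at a level too low for a comparison.

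**Figure D1:**
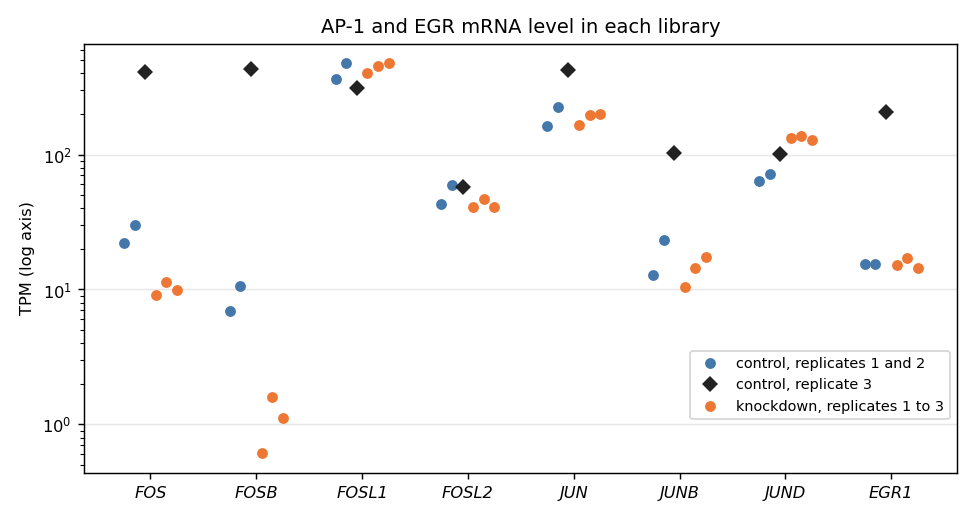
Level in each of the 6 libraries for the 8 genes whose mean reached 1 TPM, on a log axis of TPM. Each point is one library, and the diamond is control replicate 3. *FOS*, *FOSB*, *JUNB* and *EGR1* in control replicate 3 sit at 411.45, 428.00, 102.86 and 207.93 TPM, far above the other points, and for *EGR1* the remaining 5 libraries lie between 14.47 and 17.17 TPM.

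The spread between libraries differed by gene and group. The coefficient of variation was smaller in knockdown than in control cells for 8 of the 8 genes, as it was for 74.8% of all tested genes, and in control cells it holds the distance of control replicate 3. The values in knockdown cells ran from 3.73% for *JUND* and 7.84% for *FOSL2* to 25.0% for *JUNB* and 44.4% for *FOSB*. In control cells they were 140% for *EGR1*, 144% for *FOS* and 163% for *FOSB*. The order of levels in knockdown cells was *FOSL1*, *JUN*, *JUND*, *FOSL2*, *EGR1*, *JUNB*, *FOS* and *FOSB* by the group mean. *EGR1* and *JUNB* overlapped, as did *JUNB* and *FOS*, whereas the libraries of the other neighbours in this order did not. *JUN* held the second place in all 6 libraries. In control replicate 3 the order was *FOSB*, *JUN*, *FOS* and *FOSL1*, with *FOSL2* in eighth place.

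As shares of each family, the transcripts of control replicate 3 again differed from those of every other library. *FOSL1* supplied 83.2%, 82.5% and 25.8% of the summed Fos family TPM in control cells, and 88.7%, 88.3% and 90.1% in knockdown cells. *FOS* supplied 5.14%, 5.21% and 34.0% in control and 2.02%, 2.23% and 1.87% in knockdown cells. The share of *FOSB* was 1.60%, 1.85% and 35.4% in control and 0.136%, 0.311% and 0.212% in knockdown cells. The sum over the Fos family was 432, 573 and 1209 TPM in control and 450, 511 and 525 TPM in knockdown cells, so apart from control replicate 3 the groups overlapped.

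Within the Jun family the shares did not overlap between the groups, and neither did those of *FOS*, *FOSB* and *FOSL1* within the Fos family. The genes were chosen on these levels, so nothing is read from this. Shares sum to the whole, so that a larger share of 1 gene lowers the others. The TPM of *JUN* and *JUNB* in knockdown cells overlapped those of control replicates 1 and 2. *JUND* supplied 26.6%, 22.4% and 16.1% of the summed Jun family TPM in control and 42.9%, 39.5% and 36.9% in knockdown cells. *JUN* supplied 68.1%, 70.3% and 67.5% in control and 53.7%, 56.4% and 58.1% in knockdown cells, the latter below every control library. The share of *JUNB* was 5.35%, 7.26% and 16.4% in control and 3.38%, 4.11% and 5.05% in knockdown cells. JunD is known to slow the growth of fibroblasts, which JUN promotes. Protein levels and pairing were not measured.

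**Figure D2:**
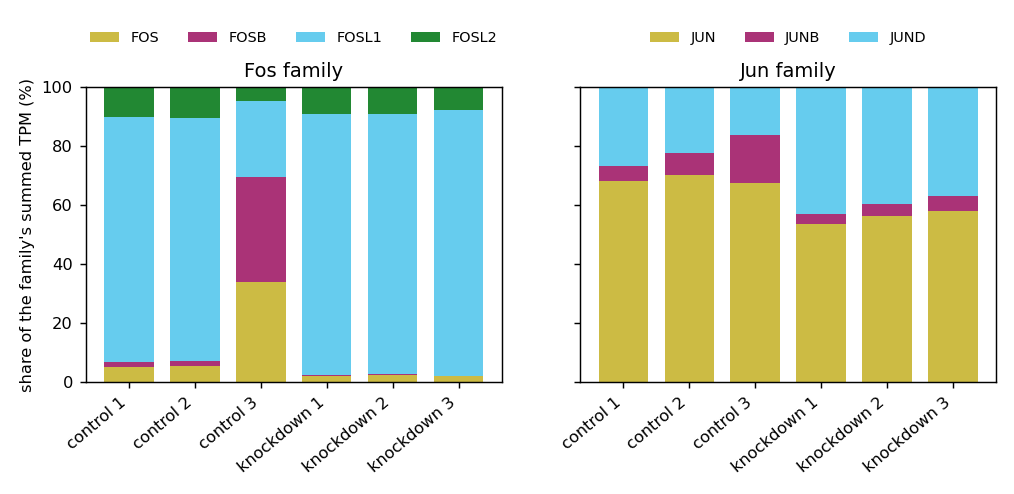
Share of each gene in the summed TPM of the Fos family (left) and of the Jun family (right), as stacked bars in percent, 1 bar per library. *FOSL1* fills 82.5% to 90.1% of the Fos bars except in control replicate 3, at 25.8%, and the *JUND* part of the Jun bars is 36.9% to 42.9% in knockdown against 16.1% to 26.6% in control cells.

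The comparison of knockdown with control cells was fitted with limma over 14020 genes whose mean reached 1 TPM, on log2(TPM + 1), a scale that understates changes of low genes. Over all of these genes 52 were called higher (0.371%) and 94 lower (0.67%) at an adjusted p under 0.05, 1.04% in all. An unadjusted p under 0.05 was found for 16.8%. The log2 fold changes, knockdown minus control, of the 8 Fos, Jun and EGR genes are given without a test and were −4.04 (SE 1.31) for *FOSB*, −2.59 (SE 0.94) for *FOS*, −1.21 (SE 0.87) for *EGR1*, −1.14 (SE 0.64) for *JUNB*, −0.41 (SE 0.31) for *JUN*, −0.30 (SE 0.18) for *FOSL2*, 0.23 (SE 0.17) for *FOSL1* and 0.77 (SE 0.19) for *JUND*. The standard error was largest where control replicate 3 was farthest from the other controls. The median over the 8 genes was −0.78, against −0.04 over all tested genes. Knockdown libraries lay below every control library for *FOS* and *FOSB*, 2 of 8, where 13.4% of all tested genes did so, and above every control library for *JUND*, 1 of 8, where 9.89% did so. Because the genes were chosen on these values, nothing is read from the counts.

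Without control replicate 3 the picture split by gene. *FOS* kept a log2 fold change of −1.28 (SE 0.21) and *FOSB* one of −2.21 (SE 0.31), each smaller than with all libraries and with a smaller error. *JUND* had 0.96 (SE 0.15). In contrast, *EGR1* had 0.01 (SE 0.17) and *JUN* −0.03 (SE 0.19), and *JUNB* had −0.31 (SE 0.31). *FOSL1* (0.09, SE 0.16) and *FOSL2* (−0.24, SE 0.19) were near their values with all libraries. The median over the 8 genes became −0.14. In all 19 alternative analyses 7 genes held their direction, and *EGR1* turned in the 1 that left out control replicate 3. *FOSB* ran from −5.09 to −2.21, *FOS* from −3.35 to −1.28 and *JUND* from 0.63 to 1.08.

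**Figure D3:**
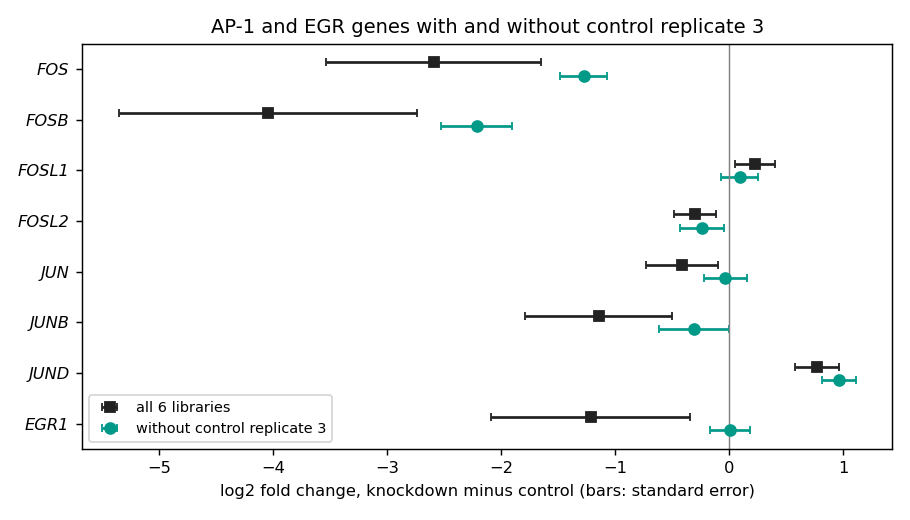
Log2 fold change (knockdown minus control, on log2(TPM + 1)) of the 8 genes with all 6 libraries (squares) and without control replicate 3 (circles), with bars of 1 standard error. Without that library *EGR1* and *JUN* sit at 0.01 and −0.03, while *FOS*, *FOSB* and *JUND* keep −1.28, −2.21 and 0.96.

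How far control replicate 3 stood out was measured for each gene as its log2(TPM + 1) minus that of the highest of the other 5 libraries. The margin was 5.21 for *FOSB*, 3.74 for *FOS*, 3.52 for *EGR1*, 2.09 for *JUNB* and 0.90 for *JUN*. It was −0.06 for *FOSL2*, −0.44 for *JUND* and −0.60 for *FOSL1*. That library was thus the highest for 5 of the 8 genes, against 20.3% of all tested genes, and the margin exceeded 1 for 4 of them, against 0.942% of all tested genes. Among the 11727 protein-coding genes tested, *FOSB* had rank 1, *FOS* rank 4, *EGR1* rank 5, *JUNB* rank 16 and *JUN* rank 96. With each library's trend with GC content removed, the margins were 5.17 for *FOSB*, 3.74 for *FOS*, 3.39 for *EGR1*, 2.01 for *JUNB* and 0.89 for *JUN*. They were −0.06 for *FOSL2*, −0.77 for *FOSL1* and −1.47 for *JUND*. With median-of-ratios scaling the margin of *FOSL2* turned to 0.11. These are the values that chose the genes and are given as a description.

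**Figure D4:**
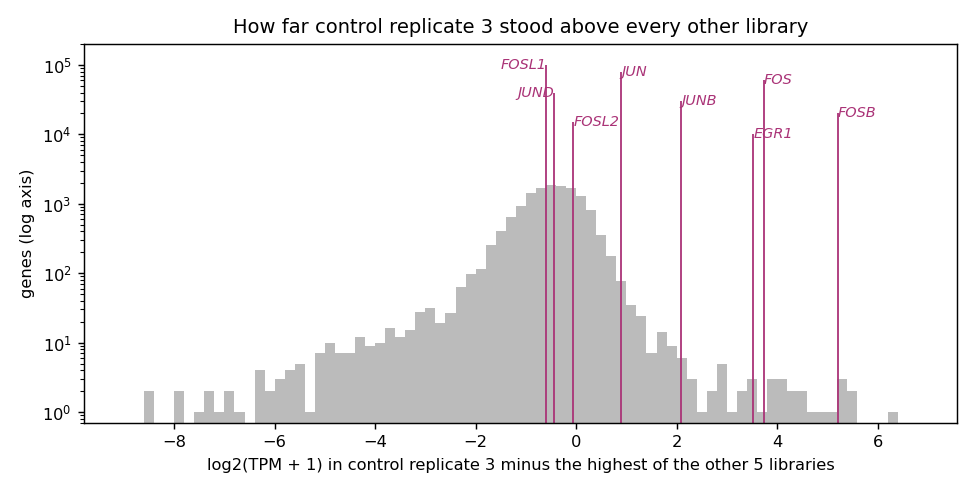
Histogram of the margin of control replicate 3 over the highest other library, in log2(TPM + 1), for the 14020 tested genes, with a log axis of gene counts. Vertical lines mark the 8 genes of the Fos, Jun and EGR families. *FOSB*, *FOS*, *EGR1* and *JUNB* lie between 2.09 and 5.21 in the right tail, and *FOSL1*, *JUND* and *FOSL2* lie between −0.60 and −0.06 in the bulk.

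Immediate early genes outside the AP-1 and EGR families were looked at next, from a list of 32 of which 28 were tested. Control replicate 3 was the highest library for 24 of the 28 (85.7%), against 20.3% of all tested genes. For 11 of the 28 the margin was over 1, against 0.942% of all tested genes. The widest were *TRIB1*, a pseudokinase gene, with 3.90, 2.98 and 27.13 TPM in control and 4.07, 3.85 and 3.23 TPM in knockdown cells, and *ZFP36*, whose product destabilises AU-rich mRNAs such as that of *FOS*, with 11.28, 16.51 and 90.97 TPM in control and 9.70, 11.88 and 13.75 TPM in knockdown cells. *KLF4*, *KLF6*, *KLF2*, *KLF10*, *IER2*, *CSRNP1*, *PLK3*, *PPP1R15A* and *MCL1* made up the rest. For *IER2* the levels were 59.61, 97.79 and 250.57 TPM in control and 56.82, 63.87 and 73.05 TPM in knockdown cells. Thus the third control led in most genes of this list, as it did for *FOS* and *EGR1*. The list was drawn up with earlier results of these data known. Of the 32 genes 1, *CCN2*, held a CArG box in the window searched.

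Against this, 1 of the 28 genes was called higher in knockdown cells and 1 lower, where 1.04% of all tested genes were called. By the sign of the log2 fold change, 7 of the 28 were higher and 21 lower, against 6489 and 7531 of all tested genes. *BTG2*, an antiproliferative gene, had 2.45, 4.41 and 1.37 TPM in control and 10.98, 11.12 and 11.49 TPM in knockdown cells, with a log2 fold change of 1.79 (SE 0.31, adjusted p = 0.0432, limma). Its lowest level was in control replicate 3. *PLK2*, a polo-like kinase gene, had 470.17, 459.19 and 547.43 TPM in control and 226.34, 221.64 and 170.04 TPM in knockdown cells, with −1.26 (SE 0.16, adjusted p = 0.0240). *CXCL8*, a chemokine gene, had the third largest difference, 1.25 (SE 0.23), with an adjusted p of 0.0556 from limma. It was called in several alternatives, among them median-of-ratios scaling, quantile normalization and a mean of at least 5 TPM. With other pseudocounts or no filter it was not called, and of the fits that left out a library only that without control replicate 1 called it. The median log2 fold change of the 28 was −0.21 with all libraries and 0.08 without control replicate 3, where those over all tested genes were −0.04 and −0.09. Without control replicate 3, *SGK1*, a serum-induced kinase gene, was called higher as well (log2 fold change 1.41, adjusted p = 0.0163), in a fit that called 1.14% of all 13993 genes tested. Its levels were 89.01, 75.37 and 304.58 TPM in control and 239.64, 214.31 and 206.44 TPM in knockdown cells, so with all 6 libraries it had 0.79 (adjusted p = 0.433), and its adjusted p with other single libraries left out reached 0.755.

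**Figure D5:**
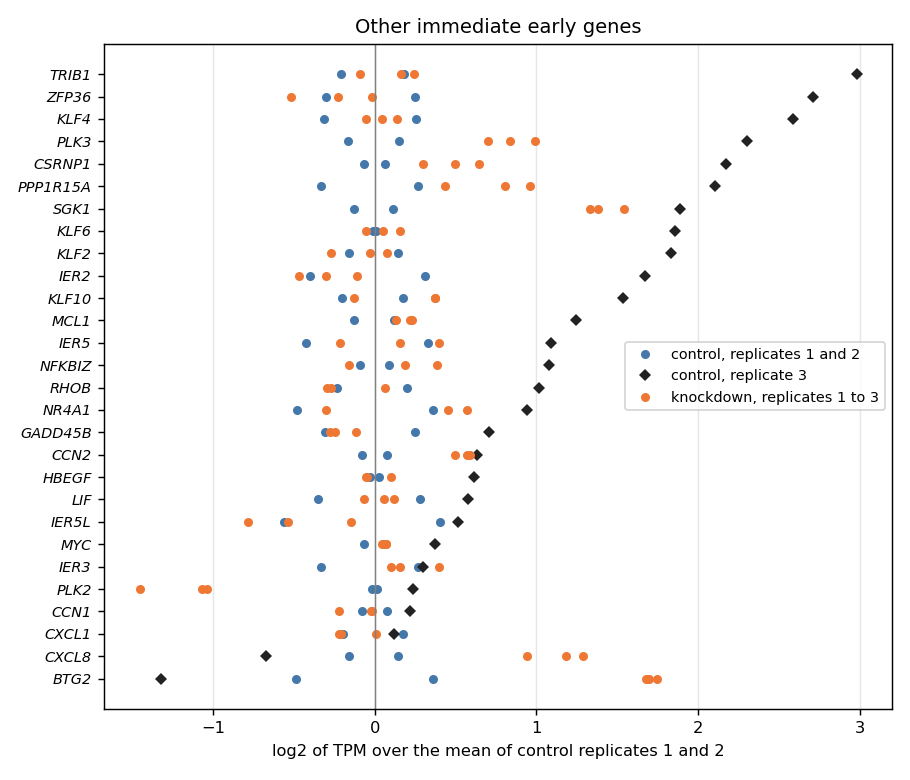
The 28 tested genes of the list of other immediate early genes, ordered by control replicate 3. The horizontal axis is the log2 of TPM over the mean of control replicates 1 and 2, and each point is a library. The diamonds of control replicate 3 lie right of every other point for 24 genes. The knockdown points of *PLK2* lie left of all controls, and those of *BTG2* and *CXCL8* lie right of all controls.

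Other leucine zipper proteins that pair with Fos or Jun gave 8 tested genes of 12. Control replicate 3 was highest for 5 of these 8 (62.5%), against 20.3% of all tested genes. None of the 8 was called by limma as fitted above, and 2 had an unadjusted p under 0.05. With library weights from arrayWeights 2 were called, as were 3218 of all 14020 tested genes. *ATF3*, a stress-induced factor, had 10.19, 13.37 and 58.58 TPM in control and 20.13, 19.22 and 19.69 TPM in knockdown cells. Its knockdown libraries lay between control replicates 1 and 2 below and control replicate 3 above. *MAFF*, a small Maf gene, had 14.63, 23.03 and 61.56 TPM in control and 22.80, 24.95 and 29.96 TPM in knockdown cells. The 3 largest log2 fold changes of this list were those of *BATF3* (−0.92, SE 0.25, adjusted p = 0.127), *ATF7* (0.45, SE 0.19, adjusted p = 0.277) and *JDP2* (−0.20, SE 0.21, adjusted p = 0.679). The EGR corepressor genes *NAB1* and *NAB2* had 0.26 (SE 0.20) and 0.29 (SE 0.29), neither called nor under an unadjusted p of 0.05, and *EGR4* was below 1 TPM in every library.

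Feedback inhibitors of MAP kinase signalling, themselves induced by it, gave 13 tested genes of 16. None was called by limma as fitted above, and 3 had an unadjusted p under 0.05. Control replicate 3 was highest for 4 (30.8%), against 20.3% of all tested genes. With arrayWeights 4 were called, as were 3218 of all 14020 tested genes. *DUSP10*, *DUSP4* and *SPRY1* were called with the GC trend removed, where 1191 of all genes were. *DUSP1*, a phosphatase that inactivates p38, JNK and ERK, had 54.09, 65.37 and 418.85 TPM in control and 57.11, 56.54 and 63.95 TPM in knockdown cells. *DUSP6*, the cytoplasmic ERK phosphatase, had 33.82, 34.96 and 168.06 TPM in control and 38.36, 39.38 and 36.88 TPM in knockdown cells. *DUSP5*, a nuclear ERK phosphatase, had 22.74, 22.45 and 75.54 TPM in control and 45.51, 51.29 and 51.74 TPM in knockdown cells. Without control replicate 3 it was called higher (log2 fold change 1.10, adjusted p = 0.0334), whereas with other single libraries left out its adjusted p reached 0.866. The largest differences with all libraries were those of *DUSP10* (1.09, SE 0.25, adjusted p = 0.0879), *DUSP1* (−0.94, SE 0.67, adjusted p = 0.523) and *SPRY1* (0.85, SE 0.24, adjusted p = 0.140).

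Of the MAP kinase cascade and the factors at these promoters, 24 of 24 genes were tested, and 1 was called, where 1.04% of all tested genes were. *SRF*, whose product binds the CArG box, had 15.55, 25.75 and 31.64 TPM in control and 4.55, 5.78 and 6.70 TPM in knockdown cells, and fell by 1.88 on the log2 scale (SE 0.28, adjusted p = 0.0292, limma). All control libraries lay above all knockdown libraries, and without control replicate 3 its log2 fold change was −1.67 (adjusted p = 0.0451). The *SRF* gene itself holds 2 CArG boxes in the window searched. Among the 16 feedback inhibitor genes above, *DUSP5* holds 2 and *SPRY4* holds 1. The SRF cofactor genes *ELK1*, *ELK3* and *ELK4* had −0.18, −0.08 and 0.03. *NRAS* (−1.13, SE 0.30, adjusted p = 0.118) was called only without control replicate 3 among the fits that left out a library (adjusted p = 0.0469, with up to 0.386 in the others), and *HRAS* had −0.49 (SE 0.27, adjusted p = 0.405). *CREB1*, a factor that binds the cAMP response element, had −0.25 (SE 0.28, adjusted p = 0.687). For 3 of these 24 genes (12.5%) the highest library was control replicate 3, against 20.3% of all tested genes.

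The calls of *SRF*, *PLK2* and *BTG2* each depended on single libraries. These calls were lost without control replicate 2 and without each of the knockdown replicates, with adjusted p up to 0.153, 0.0995 and 0.187, and held without control replicates 1 and 3. With all libraries kept, they were also lost with no filter on low values, and that of *BTG2* with eBayes without trend. Their directions were the same in every fit.

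Genes commonly given as AP-1 targets showed no call by limma as fitted above among 11 tested of 15, and 3 had an unadjusted p under 0.05. With arrayWeights 4 were called (3218 of all 14020 tested genes). *CCND1* and *HMGA1* were called with the GC trend removed (1191 of all). The largest differences were those of *MMP9* (−0.51, SE 0.30, adjusted p = 0.434), *CCND1* (0.45, SE 0.13, adjusted p = 0.152) and *HMGA1* (0.41, SE 0.15, adjusted p = 0.234). *PLAU*, the urokinase gene, had 389.89, 429.50 and 532.52 TPM in control and 376.26, 441.77 and 454.30 TPM in knockdown cells. Its control levels thus spanned a narrow range beside those of *FOS*. The collagenase and stromelysin genes *MMP1*, *MMP3*, *MMP10* and *MMP13* were too low to be tested, with *MMP3* at 0 TPM in all controls and at 1.83, 0.25 and 0.04 TPM in knockdown cells.

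Proteins that bind AU-rich elements govern how long *FOS* mRNA lasts. All 7 genes of this list had negative log2 fold changes (6 without control replicate 1 or 3), as had 7531 of all 14020 tested genes. None was called by limma as fitted above, and 4 had an unadjusted p under 0.05. With arrayWeights 4 were called (3218 of all 14020 tested genes). The largest differences were *ZFP36L2* (−0.85, SE 0.16, adjusted p = 0.0588), *ELAVL1* (−0.74, SE 0.16, adjusted p = 0.0800) and *KHSRP* (−0.62, SE 0.17, adjusted p = 0.124), each called with the GC trend removed (1191 of all). *ZFP36L1* was the one among them with control replicate 3 highest, at 92.03, 182.74 and 376.38 TPM in control and 118.21, 156.74 and 137.04 TPM in knockdown cells. Of 8 heat shock genes, which respond to stress during culture or harvest, none was called by limma as fitted above, and 1 had an unadjusted p under 0.05. Control replicate 3 was highest for 2 (25.0%), against 20.3% of all tested genes. With arrayWeights 5 were called (3218 of all 14020 tested genes), and *HSP90AA1* was called with the GC trend removed (1191 of all). All 8 had negative log2 fold changes, as had 7531 of all 14020 tested genes. Of the 8, *DNAJB1* turned with quantile normalization and arrayWeights. Another gene turned without control replicate 1, and a different one without control replicate 2. *HSP90AA1* had 798.78, 585.77 and 540.98 TPM in control and 478.78, 390.00 and 350.71 TPM in knockdown cells (log2 fold change −0.65, SE 0.19, adjusted p = 0.146). The near-identical *HSPA1A* and *HSPA1B*, between which reads can be split, had −0.47 and −0.42. The part of these lists in the levels of *FOS* and its relatives was not tested.

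The genes whose profile over the 6 libraries was most like that of *FOS*, by Pearson correlation of log2(TPM + 1), were *NFKBIA* (r = 0.995), *ANKRD33B*, *MRTO4*, *ATP7B*, *ID1*, ENSG00000289579, *ING1* and *BUB3* (0.991 or more). All have the 6 libraries in common, and control replicate 3 dominates each coefficient. *NFKBIA*, the gene of the NF-κB inhibitor IκBα, had 22.59, 28.3 and 89.41 TPM in control and 17.71, 19.79 and 16.3 TPM in knockdown cells. *ID1*, an inhibitor of helix-loop-helix factors, had 33.3, 41.14 and 208.46 TPM in control and 17.17, 15.97 and 20.49 TPM in knockdown cells. Like *FOS*, both were lower in every knockdown than in every control library, as were 13.4% of all tested genes. Both were picked for their likeness to *FOS* over these libraries, so nothing is read from this. For *EGR1* the highest coefficient (r = 0.999) was a tie. It is the same for any gene above 0 TPM in control replicate 3 alone, and 25 tested genes were, so the 8 that the rule returned have no order among them. They are mostly short RNAs and include *SNORD22*, *SNORA62*, *SNORA40* and *SNORA77B*. A likeness to a row with 1 value above 0 says no more than that *EGR1* was level in the other 5 libraries. Among protein-coding genes, a restriction made after the values were seen, the genes most like *EGR1* included *DUSP6* (0.997), *RRAD* (0.996), *KLF6* (0.995), *IGFBP3* (0.994), *DUSP1* and *TRIB1* (each 0.993).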

How the data were processed

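RNA–Seq of 6 SK-Hep1 libraries (3 control, 3 knockdown) was analysed from 1 deposited table of TPM values per library. According to the study's methods, the authors trimmed reads with fastp, aligned them with STAR, and quantified genes with RSEM, whereas the submitters' processing notes name fastp, HISAT2 2.0.5 and hg38. All 62700 gene identifiers were those of GENCODE v44, used here for names, positions, exon lengths and GC content. TPM hold no read number, so no counting interval could be given, and precision rests on 3 libraries per group. Groups and replicate numbers came from the titles.

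Values were tested as log2(TPM + 1) with limma 3.58.1 in R 4.3.3 (lmFit, eBayes with trend, 2-sided, no replicate block) for the 14020 genes whose mean reached 1 TPM, with Benjamini–Hochberg adjustment over all of them. The fit was tested on simulated data. Genes were called at an adjusted p under 0.05. No scaling between libraries was applied, and alternatives covered pseudocounts, filters, scalings, variance models, library weights, GC trends, a replicate block and each library left out. Promoter letters were read from hg38 with Python 3.11.15. The members and lists were chosen with earlier results of these data known. Named were all members, *RAB30-DT*, each listed gene called, the 3 largest differences per list, the 8 genes most like *FOS* and *EGR1*, and the 10 with the largest margin of control replicate 3. Other genes named were chosen after their values were seen. The values of 1 listed gene are not reported here.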

Additional observations from a re-analysis of the deposited data

How the results depend on the processing

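With TPM and 3 libraries per group, counts of calls moved far more than directions. The 146 genes called over all genes became 1191 with each library's trend with GC content removed, 3218 with arrayWeights and 13 with no filter on low values, and ran from 12 to 489 when 1 library was left out (lowest without control replicate 2, 15 to 18 with any knockdown replicate left out, highest without control replicate 1). The 3 listed genes called became 14, 28 and 0 in the same 3 alternatives (with no filter, 23 had an unadjusted p under 0.05), 5 with a mean of at least 5 TPM, and 0 to 8 when 1 library was left out (0 without control replicate 2 or any knockdown replicate, where 14 to 16 had an unadjusted p under 0.05 by limma). The replicate numbers were also fitted as a block. Same-numbered libraries deviated together with correlations of 0.410, 0.0359 and 0.279, so the numbers were not taken as pairs. The replicate block gave 861 genes and 11 listed genes, and the block with the GC trend removed gave 1028 and 13. The 11 include *ZFP36L2*, *ELAVL1* and *KHSRP* of the AU-rich list (adjusted p = 0.0269, 0.0347 and 0.0317 from limma with the block). The causes were not tested. Dropping the filter adds low genes to the adjustment and also refits the eBayes trend, and these were not separated.

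Of the genes called, 35.6% were higher in knockdown cells, against 46.5% with median-of-ratios scaling (60 of 129) and 48.4% with quantile normalization (78 of 161). With a library left out it was 37.2% to 60.0%, at 50.0% without control replicate 2 or knockdown replicate 3 and 55.6% and 60.0% without knockdown replicates 1 and 2. The median log2 fold change of the 8 members kept its sign in all 19 alternatives, with a lowest value of −1.24 (control replicate 1 left out) and a highest of −0.14 (control replicate 3 left out). Among the members' values, the fold change of *EGR1* turned (0.0081 without control replicate 3), as did the margin of *FOSL2* (0.11 with median-of-ratios scaling), and the margin of *JUND* moved to −1.47 with the GC trend removed.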

Other observations

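The gene that stood out most in control replicate 3 among protein-coding genes outside the Fos, Jun and EGR families was *HES1*, a helix-loop-helix repressor known as a Notch target and as a gene induced by serum. It had 2.04, 1.47 and 71.16 TPM in control and 1.63, 1.05 and 1.68 TPM in knockdown cells, a margin of 4.57 on the log2 scale. Next among genes with a symbol came *RRAD*, a small GTPase gene, with 0.88, 1.4 and 19.1 TPM in control and 1.11, 1.54 and 1.16 TPM in knockdown cells, and *SMIM47*, with 11.29 TPM in control replicate 3 and at most 0.65 TPM elsewhere. *OSR2*, a zinc finger gene, had 28.93 TPM there and at most 5.44 TPM elsewhere.

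Over all gene types the largest margins belonged mostly to short RNAs, which poly-A selected libraries capture poorly. *SNORA77B*, *SNORD22*, *MIR7844*, *U4*, *RNA5SP494*, *SNORA3B*, *SNORA71D*, ENSG00000250321 and *SNORA31B* were listed at 22.88 to 78.1 TPM in control replicate 3 and at 0 TPM in the other 5 libraries. Their exonic lengths are 122 to 142 bases. Of the 239 tested genes with under 300 exonic bases, 30 had a margin over 1 in control replicate 3, against 102 of the 13781 others. Control replicate 3 was the highest library for 19.7% of the short genes and 20.3% of the others. A gene above 0 TPM in control replicate 3 alone, as 25 tested genes were, passed the filter only through that library. These counts are therefore partly set by the filter, the margins of other libraries were not counted, and nothing is read from them.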
